A study of Mus musculus with 11 samples.

Results

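Whole hearts of mice that had lost macrophages were compared with whole hearts of mice that lacked both liver X receptors (LXR), in 6 of the 11 libraries of the series. The 3 Macrophage-depleted libraries came from CD169-DTR mice, in which the diphtheria toxin receptor is carried at the locus of CD169 (Siglec1), and which were given 0.01 µg of diphtheria toxin per g of body weight 3 times a week for 3 weeks, so that macrophages were depleted for 21 days. The 3 LXR-DKO libraries are labelled as lacking LXR alpha and LXR beta, the products of Nr1h3 and Nr1h2. All mice were males of 8 to 12 weeks. The labels do not state whether the LXR-DKO mice were given toxin, at what time of day any heart was taken, or whether each library is a separate mouse, so p-values measure the spread between libraries, which may be technical. The toxin receptor allele, the macrophage loss and, as far as the labels say, the toxin are on one side of the comparison and the LXR loss on the other, and their parts cannot be told apart within it. The 3 WT libraries, from mice given the same toxin course, were therefore set beside both groups. The 2 remaining libraries, from male mice of the same age range that lack the phagocytic receptor Mertk (Mertk-KO), entered the model only to estimate the spread between libraries. CD169 is a surface lectin of tissue-resident macrophages, and macrophages without CD169 are not targeted by this allele.

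Liver X receptors are nuclear receptors that bind oxysterols and pair with retinoid X receptors on DNA. They switch on genes of cholesterol export, lipoprotein handling and fatty acid synthesis, and in macrophages also genes of the uptake of dying cells, among them Mertk. Resident cardiac macrophages carry scavenger and phagocytic receptors such as CD163, TIM-4 and folate receptor beta, whereas monocytes that enter from blood carry the chemokine receptor CCR2. The comparison thus sets the loss of a cell type beside the loss of a transcription factor pair that works in that cell type and in many others.

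Depth was 10938600 to 20722295 estimated reads in the Macrophage-depleted libraries, 12658550 to 16534157 in the LXR-DKO libraries and 14295229 to 14860043 in the WT libraries. Values are given as normalised counts, which are estimated reads scaled to a common library size. Libraries correlated at r = 0.980 to 0.987 within Macrophage-depleted, 0.976 to 0.983 within LXR-DKO and 0.964 to 0.975 between the groups, across genes on the log2 scale. Macrophage-depleted 1 kept reads of the targeted gene Siglec1 that the other two of its group nearly lacked, as given below, and counts without it are given beside the gene groups it touches. Long transcripts were read more, relative to short ones, in the Macrophage-depleted libraries: Spearman's rho of the difference from the LXR-DKO mean with transcript length, across genes, was 0.211, 0.367 and 0.289 in the 3 libraries.

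The targeted receptors came first. Nr1h3 (ENSMUSG00000002108, GRCm38 chromosome 2, 91184061 to 91202834, minus strand) had normalised counts of 155, 152 and 155 in the Macrophage-depleted libraries and 25.9, 29.0 and 28.3 in LXR-DKO (log2 difference 2.43, SE 0.12, limma adjusted p = 8.33e-07). Nr1h2 (ENSMUSG00000060601, chromosome 7, 44549616 to 44553951, minus strand) had 591, 546 and 571 against 85.2, 91.7 and 99.6 (log2 difference 2.62, SE 0.09, limma adjusted p = 2.05e-08). Both receptors were thus several-fold lower in every LXR-DKO library, with WT at 157, 155 and 173 for Nr1h3 and 543, 525 and 525 for Nr1h2, but neither was at 0 reads. In the TPM table, which was made separately, the difference was smaller, 0.81 for Nr1h2 (adjusted p = 0.00509) and 0.47 for Nr1h3 (adjusted p = 0.138), so the Nr1h3 call was lost there. Siglec1 had 33.8, 2.12 and 0.719 in the Macrophage-depleted libraries and 63.5, 46.9 and 47.1 in LXR-DKO. It was below every LXR-DKO value in all 3, but Macrophage-depleted 1 kept a large part of that level and the other two nearly none (log2 difference -3.21, SE 0.80, limma adjusted p = 0.0505). When Macrophage-depleted 1 was left out, the Siglec1 difference was -4.51 (adjusted p = 4.36e-05). Mertk, the phagocytic receptor that is an LXR target, had 125, 93.3 and 75.4 against 93.6, 103 and 100.5, which overlapped (log2 difference -0.04, SE 0.17, limma adjusted p = 0.911). The WT libraries held 131, 147 and 130 for Mertk, above every value of both groups. Neither group was called against WT, at -0.50 for Macrophage-depleted (limma adjusted p = 0.439) and -0.45 for LXR-DKO (limma adjusted p = 0.364).

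**Figure D1:**
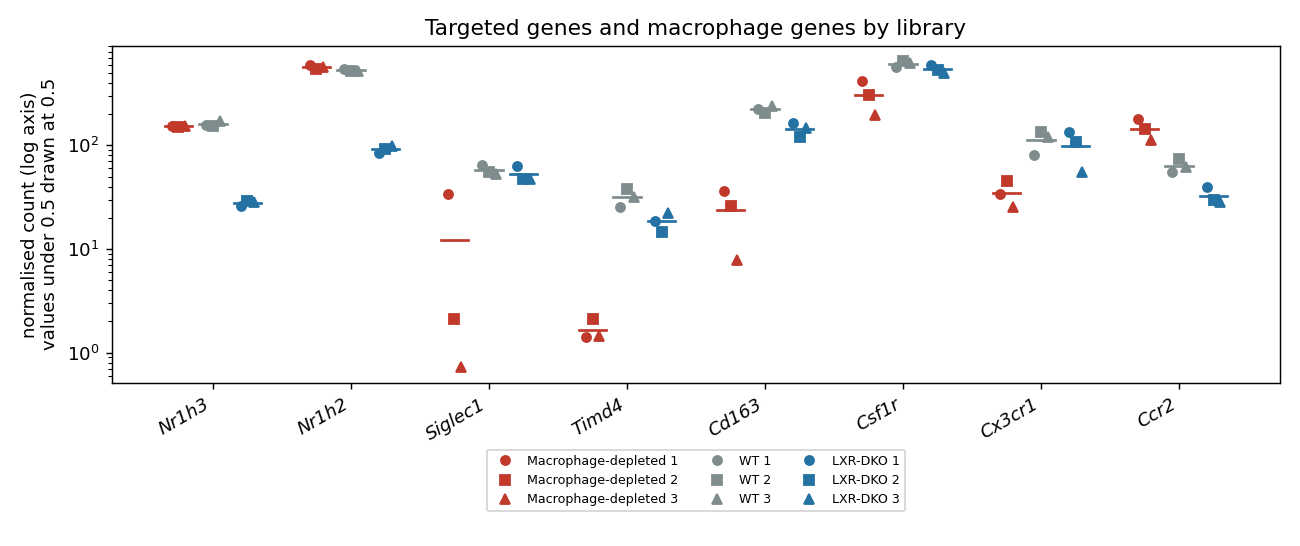
Normalised counts (log axis) of the targeted and macrophage genes in each Macrophage-depleted, WT and LXR-DKO library, with a short line at each group mean and values under 0.5 drawn at 0.5. Nr1h3 and Nr1h2 are low in the 3 LXR-DKO libraries, Timd4 and Cd163 in the 3 Macrophage-depleted libraries, and Siglec1 of Macrophage-depleted 1 (33.8) lies far above the other two (2.12 and 0.719).

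Across the genome, 450 of 13884 genes tested differed between the hearts at a limma adjusted p below 0.05 (3.24%), of which 187 were higher in Macrophage-depleted (1.35%) and 263 were lower (1.89%). The median difference over all genes was 0.00 on the log2 scale, and the median size of a called difference was 0.69. Among the called genes, 127 differed by at least 1 on the log2 scale, 55 higher and 72 lower. Scaling by the total of nuclear-genome reads moved the split to 206 higher and 191 lower. In 449 of the 450 the libraries of the groups did not overlap, and such separation was seen in 28.3% of all genes tested. Against WT, 33 genes were called in Macrophage-depleted (0.238%), 11 higher (0.0792%) and 22 lower (0.158%). In LXR-DKO 58 were called (0.418%), 30 higher (0.216%) and 28 lower (0.202%), and these comparisons share the WT libraries. Without Macrophage-depleted 1, 334 genes were called, 253 of them among the 450. Leaving out LXR-DKO 2 left 135 calls, and 116 of the 450 were called whichever single library was left out. Leaving out either Mertk-KO library gave 1229 calls.

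**Figure D2:**
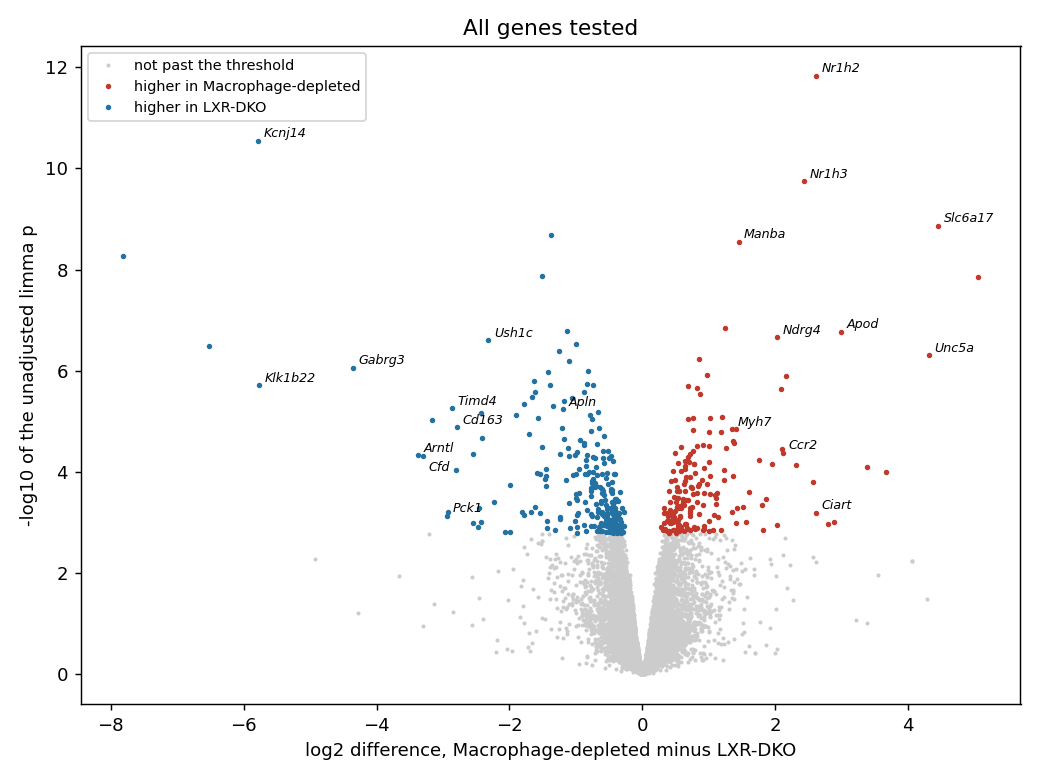
Each of the 13884 genes tested by its log2 difference, Macrophage-depleted minus LXR-DKO (x axis), and the -log10 of its unadjusted limma p (y axis). The 187 red genes are higher in Macrophage-depleted and the 263 blue genes higher in LXR-DKO, with Nr1h2 the highest point among the red genes and Kcnj14 among the blue.

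Among the 14 genes with the greatest higher values in Macrophage-depleted, several were at a WT level there and nearly silent in LXR-DKO. Slc6a17, a vesicular transporter of neutral amino acids known from neurons, had 70.4, 62.2 and 56.8 in the Macrophage-depleted libraries, 1.85, 1.21 and 2.93 in LXR-DKO and 103, 64.5 and 94.3 in WT (log2 difference 4.46, SE 0.27, limma adjusted p = 4.67e-06). Unc5a, a netrin receptor, had 32.4, 28.3 and 29.5 against 0.926, 0 and 0.976, which is 104 reads in the 3 Macrophage-depleted libraries and 2 in the 3 LXR-DKO libraries, a ratio of 0.0230 (95% counting interval 0.00275 to 0.0854). Xlr3b, an X-linked gene with near-identical copies to which reads cannot be assigned with certainty, showed the same form, with 30.2, 24.8 and 7.20 against 0, 2.23 and 0, with 43.4, 23.5 and 17.8 in WT. The zinc finger genes Rsl1 and Zfp429, members of a chromosome 13 cluster whose copies can also share reads, were measured at 32.3, 52.3 and 35.5 against 7.36, 7.61 and 8.98 for Rsl1, and at 18.1, 21.8 and 23.5 against 9.67, 0 and 1.47 for Zfp429. Tmem56 on chromosome 3 had 38.0, 33.1 and 93.5 against 8.34, 12.1 and 3.91. For these 6 genes the Macrophage-depleted values lay within or near the WT range, except Xlr3b in Macrophage-depleted 3 (7.20, below the lowest WT value of 17.8).

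Others of the 14 had values outside the WT range in 1 or both groups. Pde11a, a phosphodiesterase of cyclic nucleotides, had 38.0, 36.1 and 37.4 in Macrophage-depleted, 1.85, 1.19 and 6.83 in LXR-DKO and 9.57, 39.9 and 19.9 in WT. Apod, a lipid-binding lipocalin, had 78.8, 114 and 181 against 11.1, 14.5 and 16.6 in LXR-DKO and 69.1, 66.5 and 49.2 in WT (log2 difference 2.99, SE 0.28, limma adjusted p = 0.000195). Apod was higher in Macrophage-depleted than in LXR-DKO in every library, with Macrophage-depleted minus WT at 0.94 (adjusted p = 0.335) and LXR-DKO minus WT at -2.06 (adjusted p = 0.00442). Htra4, a secreted serine protease, had 52.1, 54.4 and 83.5 against 11.1, 19.3 and 11.7, and the WT libraries held 21.3, 33.8 and 22.0. Neither group was called against WT for Pde11a (limma adjusted p = 0.861 for Macrophage-depleted and 0.135 for LXR-DKO). The same held for Htra4 (limma adjusted p = 0.221 and 0.376). The calls of Slc6a17, Unc5a, Apod, Rsl1 and Htra4 held whichever library was left out. That of Xlr3b was lost without Macrophage-depleted 2 or LXR-DKO 1, that of Tmem56 without Macrophage-depleted 3 or LXR-DKO 1, that of Pde11a without LXR-DKO 2, and that of Zfp429 without Macrophage-depleted 1, 2 or 3, LXR-DKO 2 or 3 or WT 1, 2 or 3 (adjusted p up to 0.125 over the alternatives).

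Markers of resident macrophages that passed the test were all lower in Macrophage-depleted hearts than in LXR-DKO hearts. Of 18 resident markers tested, 3 were called lower and none higher (16.7% called, against 3.24% of all genes). All 18 had a negative difference, and the median was -1.22 against 0.00 over all genes. Set beside WT, with which both comparisons share libraries, the medians were -1.41 for Macrophage-depleted and -0.18 for LXR-DKO. Fewer macrophages and less RNA per macrophage cannot be told apart in whole tissue. Timd4, which encodes the phosphatidylserine receptor TIM-4, had 1.41, 2.12 and 1.44 in the Macrophage-depleted libraries and 18.5, 14.5 and 22.5 in LXR-DKO (log2 difference -2.87, SE 0.37, limma adjusted p = 0.00183). Cd163, the haemoglobin scavenger receptor, had 36.6, 26.2 and 7.89 against 165, 121 and 147 (log2 difference -2.79, SE 0.39, limma adjusted p = 0.00327). Ccl24, an eosinophil-attracting chemokine, had 4.90, 3.53 and 0 against 19.5, 20 and 11.2 (log2 difference -2.54, SE 0.59, limma adjusted p = 0.0412). For Timd4 and Cd163 the groups were far apart, while Ccl24 was close to the limit of detection in Macrophage-depleted. The WT libraries held 25.5, 37.9 and 31.4 for Timd4 and 225, 206 and 239 for Cd163, both above the LXR-DKO values, though LXR-DKO minus WT was not called, at -0.75 (adjusted p = 0.47) and -0.64 (adjusted p = 0.563).

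The loss was uneven among the 3 libraries. The median of the resident markers against the LXR-DKO mean was -0.52, -0.68 and -2.64 in Macrophage-depleted 1, 2 and 3. Folr2, the folate receptor of resident macrophages, had 74.6, 38.2 and 13.7 against 123, 107 and 103 (log2 difference -1.67, SE 0.43, limma adjusted p = 0.0562), and the complement gene C1qa had 281, 209 and 61.9 against 495, 442 and 341 (log2 difference -1.44, SE 0.42, limma adjusted p = 0.0824). Mrc1, the mannose receptor, had 409.6, 348 and 77.7 against 354, 244 and 330.0, so that Macrophage-depleted 3 alone lay below every LXR-DKO library. Without Macrophage-depleted 1, 6 of the 18 were called lower and the median was -1.67, and without Macrophage-depleted 3 the median was -0.53. With TPM values, 2 of 16 were called lower and the median was -0.68. Summed over the list, normalised counts were 5497 to 7733 in Macrophage-depleted, 7661 to 8430 in LXR-DKO and 8624 to 9200 in WT, a sum carried mostly by Selenop and Gas6, which other heart cells also express. Lyve1, Gas6, Selenop and Maf overlapped between the groups. Folr2, C1qa and Mrc1 fall outside the naming rule and were chosen after their values were seen.

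General macrophage markers separated the hearts less. Of 23, 2 were called lower and none higher (8.7% called, against 3.24% of all genes), with a median of -0.22, and none was called in the TPM table. Csf1r, the receptor for the macrophage growth factor CSF1, had 419, 306 and 196 against 597, 528 and 496 (log2 difference -0.88, SE 0.21, limma adjusted p = 0.0437). Cx3cr1, the fractalkine receptor, had 33.8, 45.3 and 25.3 against 134, 107 and 55.6 (log2 difference -1.43, SE 0.33, limma adjusted p = 0.0394). Both genes were lower in every Macrophage-depleted library than in any LXR-DKO library. Cd68, Laptm5, Tyrobp and Ptprc, which all myeloid cells or all leukocytes carry, were not called, with differences of 0.03, -0.08, -0.17 and 0.69. They fall outside the naming rule, and of the 23 markers 17 had a negative difference and 6 a positive difference. The groups did not overlap in 7 lower and 2 higher of the 23, where 14.6% and 13.7% of all genes were so separated. Among other called myeloid genes, Lilra5, an immunoglobulin-like receptor, had 7.04, 2.12 and 1.44 against 34.3, 25.3 and 21.5 (log2 difference -2.81, SE 0.49, limma adjusted p = 0.0104), and Pla2g2d, a secreted phospholipase A2, had 7.04, 3.48 and 1.60 against 17.6, 34.1 and 27.8 (log2 difference -2.55, SE 0.41, limma adjusted p = 0.00687). Calls of Timd4, Cd163 and Pla2g2d held in every leave-out. The call of Lilra5 was lost without LXR-DKO 1, and those of Csf1r, Cx3cr1 and Ccl24 were lost without any of several libraries, including Macrophage-depleted 2 and 3 and LXR-DKO 1 and 2 (adjusted p up to 0.152, 0.160 and 0.160).

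Ccr2 moved the other way. This receptor for CCL2, which marks monocytes and macrophages derived from them, had 179.7, 145 and 112 in the Macrophage-depleted libraries, 40.1, 29.5 and 28.4 in LXR-DKO and 54.9, 74.1 and 61.4 in WT. Every Macrophage-depleted value was above every WT value, and every WT value above every LXR-DKO value (log2 difference 2.11, SE 0.34, limma adjusted p = 0.0067). Neither group was called against WT for it: Macrophage-depleted minus WT was 1.17 (adjusted p = 0.302) and LXR-DKO minus WT -0.94 (adjusted p = 0.343). The Ccr2 call held without each library in turn. It was the only called gene of 14 monocyte-associated genes tested (7.14%, against 3.24% of all genes). Their median difference was 0.49, with 12 above 0. Ly6c2, a surface antigen of inflammatory monocytes, had 88.6, 63.6 and 77.7 against 36.7, 51.6 and 42.0, with no overlap of the groups but no call (log2 difference 0.81, SE 0.26, limma adjusted p = 0.112). Lyz1, a lysozyme gene nearly identical to Lyz2 and therefore uncertain, had 29.3, 37.1 and 41.4 against 4.12, 0.796 and 14.9 (log2 difference 2.80, SE 0.65, limma adjusted p = 0.0422), while Lyz2 was 1088, 891 and 677 against 1413, 1177 and 1122 and not called. The Lyz1 call was lost without Macrophage-depleted 1, 2 or 3, LXR-DKO 1 or 2 or WT 1, 2 or 3. Ly6c2 was named after its values were seen.

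Other blood cells gave few differences. Of 6 neutrophil genes tested, Mmp9, a gelatinase, was called, with 8.45, 8.48 and 11.5 against 24.1, 31.4 and 39.1 (log2 difference -1.62, SE 0.34, limma adjusted p = 0.0284), and its call was lost without each of the 6 libraries. The other 5 had positive differences, and the median of the list was 0.45, with 16.7% called against 3.24% of all genes. Mpo was at 0 reads in both groups, and Mmp8, Ngp and Camp were at 0 in LXR-DKO. No gene was called among 8 B cell genes, 8 MHC class II genes, 8 erythrocyte genes or 3 platelet genes, and only 1 of the 16 T and NK cell genes passed the filter on low values. Ighm, which encodes the immunoglobulin M heavy chain, was the lowest of the B cell genes, with 98.5, 53.7 and 29.5 against 129.7, 222 and 96.7 (log2 difference -1.37, SE 0.42, limma adjusted p = 0.0956), while 5 of the 8 had positive differences and the median was 0.27. Of 21 genes of the uptake of dying cells, Timd4 was called lower and Cd300lb, a receptor of that process, higher, with 18.3, 22.6 and 20.1 against 11.1, 3.62 and 2.93 (log2 difference 1.82, SE 0.44, limma adjusted p = 0.048, a call lost without 8 of the 11 libraries). That was 9.52% called, against 3.24% of all genes.

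Genes that LXR switches on were called in both directions. Of 30 LXR target genes tested, 2 were called higher in Macrophage-depleted and 3 lower (16.7%, against 3.24% of all genes), and 1 of the higher ones was Nr1h3 itself. The median difference was -0.07, with 10 genes above 0 and 20 below. Apoe, the apolipoprotein of macrophage and plasma lipid transport, had 1746, 1128 and 1437 in the Macrophage-depleted libraries and 2409, 2444 and 2139 in LXR-DKO, with WT at 2924, 2835 and 2491 (log2 difference -0.72, SE 0.14, limma adjusted p = 0.0161). Apoe was lowest in Macrophage-depleted, with -0.96 (adjusted p = 0.0165) against WT, while LXR-DKO minus WT was -0.24 (adjusted p = 0.528). Scd1, the stearoyl-CoA desaturase of fatty acid synthesis, had 169.6, 232 and 193 against 663, 1419 and 329 (log2 difference -1.78, SE 0.39, limma adjusted p = 0.0343), a spread of the LXR-DKO libraries from near WT (275, 285 and 179.6) to well above it. LXR-DKO 2 held the highest Scd1 value, as it did for the called adipocyte genes given below, and a link with fat in the samples was not tested. Elovl5, a fatty acid elongase, had 282, 300.5 and 297 against 444, 508 and 443 (log2 difference -0.66, SE 0.09, limma adjusted p = 0.00207). Mylip, which encodes the ubiquitin ligase IDOL, went the other way, with 349, 279 and 295 against 203, 168 and 202, with 215, 257 and 279 in WT (log2 difference 0.68, SE 0.14, limma adjusted p = 0.0231).

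The transporters of cholesterol export, named here for their standing as LXR targets, were not called. Abca1 had 512, 617 and 376 against 637, 521 and 698 (log2 difference -0.32, SE 0.17, limma adjusted p = 0.296). Abcg1 had 57.7, 62.2 and 43.2 against 101, 95.3 and 65.4, higher in LXR-DKO in every library (log2 difference -0.66, SE 0.21, limma adjusted p = 0.109). Srebf1, the regulator of fatty acid synthesis that LXR drives in liver, had 509.6, 415 and 403 against 377, 324 and 293, with 517, 456 and 516 in WT (log2 difference 0.42, SE 0.12, limma adjusted p = 0.0773). Among 17 receptors and cofactors, Nr1h2, Nr1h3 and the acetyltransferase gene Ep300 were called higher, Ep300 with 857, 904 and 898 against 622, 533 and 701 (log2 difference 0.53, SE 0.11, limma adjusted p = 0.0287). Of 25 genes of the sterol pathway, 1 was called, their regulator Srebf2, with 407, 379 and 418 against 295, 334 and 288 (log2 difference 0.39, SE 0.10, limma adjusted p = 0.0495). The share called was 17.6% of the receptors and cofactors and 4% of the sterol pathway genes, against 3.24% of all genes. The Elovl5 call held without each library. The call of Apoe was lost without Macrophage-depleted 3 or LXR-DKO 1 or 2, that of Mylip without Macrophage-depleted 1 or 3 or LXR-DKO 1 or 2, that of Scd1 without Macrophage-depleted 1, 2 or 3, LXR-DKO 1 or 2 or WT 1 or 2, that of Ep300 without Macrophage-depleted 1, 2 or 3 or LXR-DKO 1 or 2, and that of Srebf2 without any one of 9 libraries.

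Chromosome 7, which carries Nr1h2, held the 3 lowest values among the genes that the naming rule covers. Of its 1096 genes tested, 55 were called (5.02%), 16 higher and 39 lower in Macrophage-depleted, against 3.24% of all genes. Within 5 Mb of Nr1h2, 11 of 114 were called (9.65%), 10 of them lower. Farther away, 0 of 30 were called at 5 to 10 Mb, 4 of 186 (2.15%) at 10 to 20 Mb and 39 of 765 (5.10%) beyond 20 Mb. Kcnj14 (ENSMUSG00000058743, GRCm38 chromosome 7, 45816460 to 45824782, minus strand), an inward rectifier potassium channel gene, had 18.3, 9.90 and 11.5 in Macrophage-depleted, 739, 773 and 766 in LXR-DKO and 11.7, 9.21 and 16.8 in WT (log2 difference -5.78, SE 0.25, limma adjusted p = 1.98e-07). Klk1b22 (ENSMUSG00000060177, 44112673 to 44116922, plus strand), of a kallikrein family whose copies can share reads, had 59.3, 55.5 and 46.9 in LXR-DKO, 0 reads in the 3 WT libraries and 0 reads in the 3 Macrophage-depleted libraries, at least 63.1-fold lower than LXR-DKO with the floor of 3 reads over the group. Gabrg3 (56716465 to 57387188, minus strand), a GABA receptor subunit gene, had 1.44, 2.83 and 2.16 against 70.4, 49.5 and 69.3, with 1.06, 1.02 and 1.05 in WT (log2 difference -4.36, SE 0.47, limma adjusted p = 0.00058). All 3 genes were near the WT level in Macrophage-depleted and higher than WT in LXR-DKO, with LXR-DKO minus WT at 5.85 (adjusted p = 1.74e-07) for Kcnj14, 5.77 (adjusted p = 0.00135) for Klk1b22 and 4.95 (adjusted p = 0.000229) for Gabrg3. Outside the naming rule, the processed pseudogene Gm5900 further along chromosome 7 (104949915 to 104950289, minus strand) had 0 reads in Macrophage-depleted and was at least 262-fold lower there than in LXR-DKO. Its reads can come from a near-identical parent gene, and it was chosen after its values were seen.

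Further chromosome 7 genes were called. Igsf23 (19937305 to 19950756, minus strand) had 11.2, 24.7 and 15.8 against 216, 163 and 105, with 39.3, 28.7 and 11.1 in WT (log2 difference -3.16, SE 0.43, limma adjusted p = 0.00239). Bcat2, the mitochondrial aminotransferase of branched-chain amino acids, had 992, 866 and 823 against 2229, 2402 and 2288, with 1136, 1144 and 1019 in WT (log2 difference -1.37, SE 0.09, limma adjusted p = 5.69e-06). Ush1c, a scaffold protein gene, had 70.4, 72.1 and 79.9 against 354, 453 and 323, with 79.7, 46.1 and 93.3 in WT. Lrrc4b, the called gene nearest to Nr1h2 at 0.0863 Mb, had 196, 168 and 119 against 385, 403 and 669 (log2 difference -1.57, SE 0.21, limma adjusted p = 0.00238), with 127, 136 and 123 in WT. Nup62 at 0.262 Mb had 182, 194 and 199 against 280.1, 240.3 and 258, with 263, 216 and 255 in WT (log2 difference -0.43, SE 0.10, limma adjusted p = 0.0482, lost without any of 9 libraries). Igsf23, Bcat2, Ush1c and Lrrc4b were thus near WT in Macrophage-depleted and above it in every LXR-DKO library, whereas for Nup62 the LXR-DKO values lay near WT and the Macrophage-depleted values below it. In the opposite direction, the glutamine transporter gene Slc1a5 had 372, 368 and 371 against 148, 179 and 141, with 249, 311 and 295 in WT (log2 difference 1.25, SE 0.11, limma adjusted p = 0.000195). Calls of Kcnj14, Klk1b22, Gabrg3, Igsf23 and Lrrc4b held without each library. Igsf23, Apoe and Slc1a5 lie in 1 window of 10 Mb, from 10 to 20 Mb on chromosome 7, in which 14 of 96 genes were called (14.6%). Bcat2, Ush1c, Slc1a5 and the window were chosen after their values were seen.

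**Figure D3:**
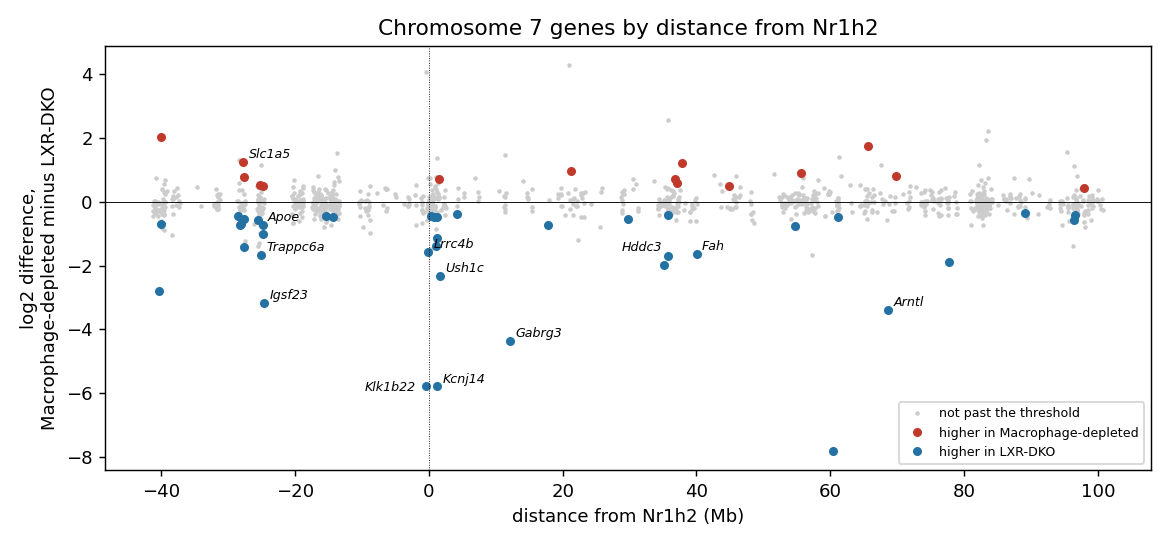
Each tested gene of chromosome 7 other than Nr1h2 itself, by its distance from Nr1h2 in Mb (x axis) and its log2 difference, Macrophage-depleted minus LXR-DKO (y axis). Called genes are coloured. The chromosome holds 16 called higher and 39 lower in Macrophage-depleted, and Nr1h2, which is among the higher, is not drawn. Kcnj14, Klk1b22 and Gabrg3 lie at -5.78, -5.77 and -4.36, below all others but the pseudogene Gm5900, which was read 0 times in Macrophage-depleted.

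The other targeted loci held fewer calls. Within 5 Mb of Nr1h3 on chromosome 2, 4 of 53 genes were called (7.55%), all lower, of which the nearest were Creb3l1, a membrane-bound transcription factor gene with 54.9, 51.6 and 45.3 against 84.3, 83.2 and 90.8 (log2 difference -0.76, SE 0.14, limma adjusted p = 0.0133), Trp53i11 (266, 291 and 204 against 638, 588 and 426) and Tspan18 (159, 162 and 169 against 273, 246 and 220.1). In WT, Creb3l1 had 84.0, 81.9 and 70.2, Trp53i11 480, 369 and 525, and Tspan18 257, 203 and 230.5. For Creb3l1, Trp53i11 and Tspan18, LXR-DKO minus WT was 0.13, 0.26 and 0.10, and Macrophage-depleted minus WT -0.63, -0.85 and -0.48. None of these differences from WT was called. Within 5 Mb of Siglec1, where the toxin receptor was placed, 2 of 92 were called (2.17%). They were Prnd, with 45.0, 69.3 and 36.0 against 119, 115 and 84.9, and the kinase gene Stk35, with 429, 440.3 and 580.5 against 266, 233 and 255. The call of Stk35 was lost without LXR-DKO 2, that of Prnd without Macrophage-depleted 1 or 3 or LXR-DKO 1 or 2, that of Creb3l1 without Macrophage-depleted 3 or LXR-DKO 1 or 2 and that of Tspan18 without any of 5 libraries. Away from the targeted genes, the window from 120 to 130 Mb on chromosome 3 held 8 calls among 47 genes (17.0%). They included Tmem56, the lipid flippase gene Abca4 with 60.5, 75.7 and 134 against 232, 242 and 227, the aminopeptidase gene Enpep with 169.8, 187 and 178 against 411, 385 and 363, and Mcub, an inhibitory subunit gene of the mitochondrial calcium uniporter, with 38.0, 21.2 and 21.6 against 7.41, 7.24 and 3.91. Elsewhere, Manba, the lysosomal beta-mannosidase on chromosome 3, had 355, 408 and 389 against 134, 135 and 150.4, with 435, 434 and 391 in WT (log2 difference 1.45, SE 0.09, limma adjusted p = 6.53e-06), and Ndrg4 on chromosome 8 had 4624, 3636 and 4275 against 1078, 1287 and 759.5, with 6039.8, 3858 and 4054 in WT (log2 difference 2.03, SE 0.19, limma adjusted p = 0.000232). For Abca4, Mcub, Manba and Ndrg4 the Macrophage-depleted values lay near WT and the LXR-DKO values apart from it. The call of Abca4 was lost without Macrophage-depleted 2 or LXR-DKO 1 or 2. The chromosome 3 window and the genes named from it, and Manba and Ndrg4, were chosen after their values were seen.

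Circadian clock genes separated the 2 groups more often than any other list of at least 15 genes. Of 19 tested, 6 were called higher in Macrophage-depleted and 1 lower (36.8% called, against 3.24% of all genes), with a median of 0.71. In the clock, BMAL1 (encoded by Arntl) and its partners CLOCK or NPAS2 bind E-boxes and switch on Per, Cry, Nr1d, Dbp and Ciart genes. The products of Per, Cry, Nr1d and Ciart repress these activators in turn. PAR-domain factors (Dbp, Tef, Hlf) act on D-boxes, and the ROR and REV-ERB receptors on their own element in Arntl. Upstream regions of 3 genes, each the 250 bases before the RefSeq start site (GRCm38.p6), are shown because Arntl was the 1 called lower and Ciart and Per3 had the greatest called rises, and capitals mark the E-box CACGTG and the D-box TTATGNAA.
Ciart, chr3:95882229-95882478, minus strand: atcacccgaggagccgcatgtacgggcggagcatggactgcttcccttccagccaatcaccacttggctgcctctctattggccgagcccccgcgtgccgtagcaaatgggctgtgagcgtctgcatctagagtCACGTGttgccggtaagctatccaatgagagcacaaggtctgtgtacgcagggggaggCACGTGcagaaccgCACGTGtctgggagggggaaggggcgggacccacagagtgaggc
Per3, chr4:151044666-151044915, minus strand: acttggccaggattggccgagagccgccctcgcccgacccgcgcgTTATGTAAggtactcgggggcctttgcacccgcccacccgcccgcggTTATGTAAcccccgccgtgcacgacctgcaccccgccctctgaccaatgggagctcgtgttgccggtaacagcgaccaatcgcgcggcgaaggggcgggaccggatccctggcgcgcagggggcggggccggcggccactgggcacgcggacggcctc
Arntl, chr7:113207215-113207464, plus strand: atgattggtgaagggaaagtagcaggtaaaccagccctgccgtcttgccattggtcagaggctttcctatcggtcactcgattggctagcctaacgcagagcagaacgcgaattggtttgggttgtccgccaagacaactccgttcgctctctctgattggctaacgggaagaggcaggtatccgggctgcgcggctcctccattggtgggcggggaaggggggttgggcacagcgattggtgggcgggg
The Ciart window holds 3 E-boxes, starting 116, 58 and 44 bases before the start, and the Per3 window 2 D-boxes, starting 205 and 158 bases before it. None of these motifs, nor the ROR element TAGGTCA, was found on either strand in the Arntl window. Over the list, 5 of 16 genes with a window held an E-box, 2 a D-box and 1 a ROR element, against 8.34%, 1.79% and 1.56% of the 10408 tested genes with a window. A match of letters is a description of the window only.

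Arntl, the positive arm, had 7.04, 29.7 and 18 in the Macrophage-depleted libraries, 167, 157 and 197 in LXR-DKO and 199.9, 73.7 and 69.2 in WT. It was lower in every Macrophage-depleted library than in any LXR-DKO or WT library (log2 difference -3.38, SE 0.54, limma adjusted p = 0.00697). Ciart, a repressor of the clock, had 360.4, 378 and 399 against 35.2, 61.5 and 103, with WT at 44.7, 118 and 149.8 (log2 difference 2.62, SE 0.57, limma adjusted p = 0.0324). Per3 had 1002, 868 and 1039.6 against 260.4, 398 and 374 (log2 difference 1.51, SE 0.32, limma adjusted p = 0.0282). Nr1d2, which encodes REV-ERB beta, had 2693, 2731 and 2867 against 1474, 1411 and 1668 (log2 difference 0.87, SE 0.11, limma adjusted p = 0.00113). The output factors Hlf and Tef had 809, 791 and 1048 against 319, 359.9 and 419.8 (log2 difference 1.26, SE 0.20, limma adjusted p = 0.00579) and 3640.3, 3136 and 3654 against 1443, 1618 and 1794 (log2 difference 1.10, SE 0.23, limma adjusted p = 0.0261). Bhlhe41, another E-box repressor, had 755, 774 and 818 against 324, 384 and 480.1 (log2 difference 1.00, SE 0.23, limma adjusted p = 0.0398). In each of these 6 genes all Macrophage-depleted values were above all LXR-DKO and all WT values.

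Members that did not pass the threshold stood apart too. Per2 had 428, 407 and 509 against 71.3, 104 and 135 (log2 difference 2.15, SE 0.55, limma adjusted p = 0.0551), and Dbp 1916, 1757 and 1996 against 609, 835 and 778 (log2 difference 1.36, SE 0.43, limma adjusted p = 0.104). Npas2 had 19.7, 36.8 and 20.9 against 94.5, 68.8 and 102 (log2 difference -1.78, SE 0.48, limma adjusted p = 0.0665), and Clock 454, 592 and 474 against 701, 635 and 775 (log2 difference -0.48, SE 0.15, limma adjusted p = 0.0934). In all, the libraries did not overlap in 18 of the 19 genes, 13 higher and 5 lower in Macrophage-depleted, where 13.7% and 14.6% of all genes were so separated. WT libraries spread widely, with WT 1 close to LXR-DKO and WT 2 and 3 between the groups for Per3, Ciart and Dbp. None of the 7 was called against WT: for Ciart, Macrophage-depleted minus WT was 2.02 (adjusted p = 0.284) and LXR-DKO minus WT -0.60 (adjusted p = 0.72), and for Arntl they were -2.60 (adjusted p = 0.108) and 0.77 (adjusted p = 0.614). Calls of Nr1d2, Hlf and Arntl held without each library, and without Macrophage-depleted 1 the list had 2 called higher and 1 lower. Calls of Ciart, Tef, Per3 and Bhlhe41 were lost without any one of the 3 Macrophage-depleted libraries, LXR-DKO 1 or LXR-DKO 2. Collection times were not given in the labels, and their part in these differences was not tested. Per2, Dbp, Npas2 and Clock were named after their values were seen.

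**Figure D4:**
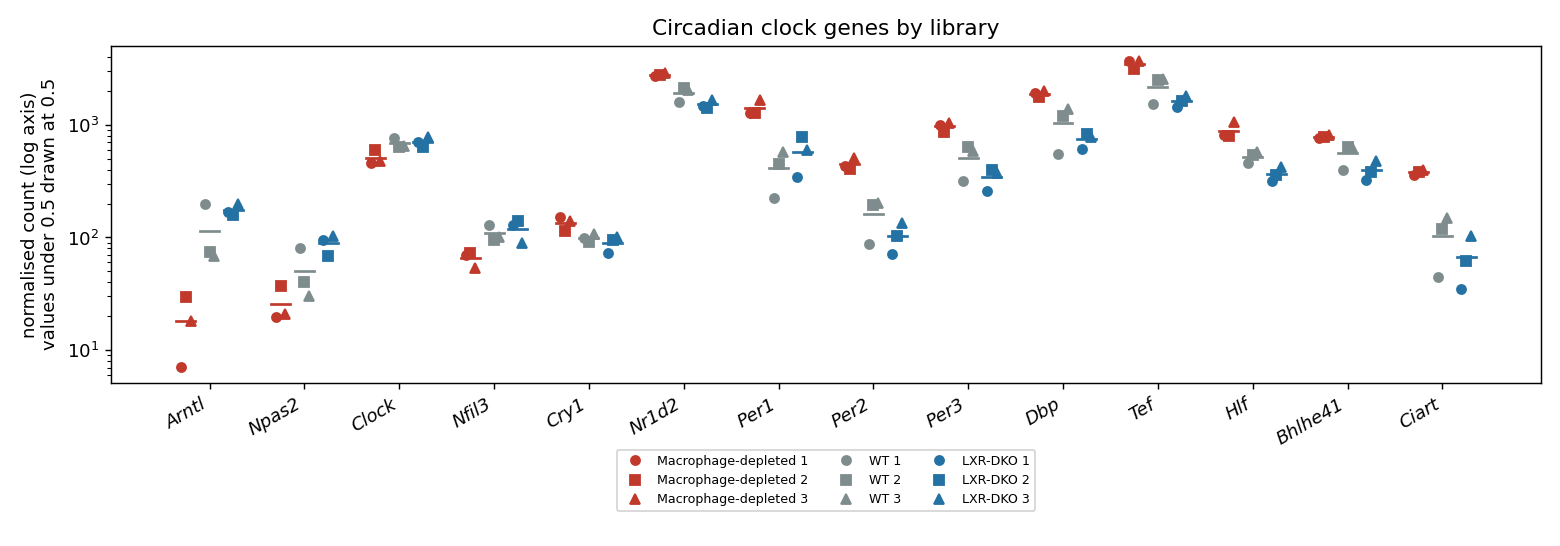
Normalised counts (log axis) of 14 clock genes in each Macrophage-depleted, WT and LXR-DKO library, with a short line at each group mean. Arntl, Npas2, Clock and Nfil3 lie below the LXR-DKO libraries in Macrophage-depleted and the other 10 genes above them, with WT 1 near the LXR-DKO libraries for several genes.

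The adipocyte genes that passed the test were all lower in Macrophage-depleted hearts. Of 11 tested, 5 were called lower and none higher (45.5% called, against 3.24% of all genes), and the median was -0.20. The other 6, among them Fabp4 (-0.20) and Pparg (-0.17), were not called. Cfd, the adipokine adipsin, had 8.45, 4.95 and 2.16 against 42.6, 99.0 and 38.1, with 28.7, 58.4 and 27.2 in WT (log2 difference -3.30, SE 0.54, limma adjusted p = 0.0071). Adipoq, adiponectin, had 4.22, 0.707 and 1.44 against 25.9, 38.6 and 7.81, with 7.44, 17.4 and 6.29 in WT (log2 difference -2.92, SE 0.64, limma adjusted p = 0.0324). Car3, a carbonic anhydrase abundant in fat, had 16.9, 17.0 and 12.2 against 75.0, 144 and 57.4, with 59.5, 77.8 and 38.8 in WT (log2 difference -2.41, SE 0.36, limma adjusted p = 0.00448). Cidec and Plin1, lipid droplet proteins, had 4.22, 1.41 and 2.16 against 13.9, 25.3 and 15.6 (log2 difference -2.45, SE 0.52, limma adjusted p = 0.029) and 4.58, 2.12 and 2.88 against 11.1, 28.9 and 10.8 (log2 difference -1.99, SE 0.49, limma adjusted p = 0.049). In each of the 5, LXR-DKO 2 held the highest value, and the WT mean lay between the groups. Pck1, an enzyme of gluconeogenesis and of glyceride synthesis in fat, moved with them, with 1.41, 0.707 and 5.04 against 26.9, 39.9 and 8.79 (log2 difference -2.94, SE 0.65, limma adjusted p = 0.0345). Without Macrophage-depleted 1, 4 of the 11 were called, and the TPM table gave 2 such calls. Calls of Cfd and Car3 held in every leave-out, whereas Adipoq lost its call without Macrophage-depleted 2 or 3 or LXR-DKO 1 or 2, Cidec without Macrophage-depleted 2 or 3 or LXR-DKO 1 or 2, Pck1 without Macrophage-depleted 1 or 2, LXR-DKO 1 or 2 or WT 1 or 3 and Plin1 without any of 8 libraries. How much fat was taken with each heart was not tested.

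Complement genes were called mostly higher in Macrophage-depleted hearts. Of 18 tested, 3 were called higher (Cd59a, Serping1 and C1s1) and 1 lower (Cfd, above), with a median of 0.35. That was 22.2% called, against 3.24% of all genes. Cd59a, an inhibitor of the membrane attack complex, had 622, 533 and 654 in Macrophage-depleted, 332, 346 and 320.4 in LXR-DKO and 991, 924 and 922 in WT (log2 difference 0.85, SE 0.09, limma adjusted p = 0.000431). It was lower than WT in both groups, with log2 differences of -0.65 (adjusted p = 0.0126) and -1.50 (adjusted p = 2.45e-06). Serping1, the C1 inhibitor, had 1363, 1656 and 1843 against 1120.4, 1126 and 1109.5 (log2 difference 0.52, SE 0.10, limma adjusted p = 0.018). The protease gene C1s1 had 502, 617 and 698 against 342, 276 and 408 (log2 difference 0.83, SE 0.16, limma adjusted p = 0.0188). C3, the central component, had 2803, 3753 and 5601 against 2003, 1890.2 and 2182 and did not pass (log2 difference 0.94, SE 0.24, limma adjusted p = 0.0511; without Macrophage-depleted 1, 1.18 with adjusted p = 0.0263). The macrophage-made C1qa, C1qb and C1qc were below LXR-DKO in all 3 Macrophage-depleted libraries and were not called. The calls of Serping1 and C1s1 were lost without Macrophage-depleted 2 or 3 or LXR-DKO 1 or 2, and that of Cd59a was not. Without Macrophage-depleted 1, 5 of the list were higher and 3 lower. C3 was named after its values were seen.

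Interferon-stimulated genes were not called in either direction among 31 tested, although 27 had a positive difference and the median was 0.34. Their summed normalised counts were 5432, 8892 and 7658 in Macrophage-depleted 1, 2 and 3, 5165 to 5407 in LXR-DKO, and 5918, 6994 and 6539 in WT. All LXR-DKO sums were thus below every WT sum, while Macrophage-depleted 2 and 3 were above and Macrophage-depleted 1 below them. The median against WT was 0.09 in Macrophage-depleted and -0.28 in LXR-DKO. Tgtp1, an immune GTPase gene, had 98.9, 258 and 189 against 51.9, 51.2 and 60.0 (log2 difference 1.62, SE 0.47, limma adjusted p = 0.0838). Il33, an alarmin of stromal cells, had 73.2, 148 and 109 against 28.7, 53.1 and 58.6 (log2 difference 1.23, SE 0.31, limma adjusted p = 0.0522) and was among 10 cytokine and inflammasome genes of which none was called.

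Matrix genes differed in both directions. Of 31 tested, 2 were called higher in Macrophage-depleted and 4 lower (19.4% called, against 3.24% of all genes), with a median of -0.17. Eln, elastin, had 282, 270.1 and 351 against 801, 721 and 566 (log2 difference -1.20, SE 0.17, limma adjusted p = 0.00327). Col4a1 and Col4a2, the basement membrane collagen chains that are transcribed from 1 shared promoter region, had 3899, 4675 and 3658 against 9349.8, 8940.4 and 6126 (log2 difference -0.98, SE 0.16, limma adjusted p = 0.00656) and 3415, 3823 and 3156 against 7091, 6911 and 5165 (log2 difference -0.87, SE 0.13, limma adjusted p = 0.00531). Elastin and collagen IV were at about the WT level in LXR-DKO (746, 548 and 479 for Eln and 7056, 6856 and 7339 for Col4a1), and Macrophage-depleted minus WT was -0.96 (adjusted p = 0.0483) for Eln and -0.80 (adjusted p = 0.0748) for Col4a1. Timp3, an inhibitor of matrix proteases, was higher in Macrophage-depleted, with 4217, 4080.0 and 4633 against 2050.5, 2257 and 2156, with 2379, 2929 and 3034 in WT (log2 difference 1.00, SE 0.15, limma adjusted p = 0.00561). Mmp13, a collagenase, had 2.82, 0 and 0 against 9.26, 9.65 and 4.88, from 2 reads in Macrophage-depleted and 23 in LXR-DKO, a ratio of 0.0726 (95% counting interval 0.00829 to 0.294), and its call was lost without any of 7 libraries. Col8a1, a vascular collagen, had 332, 386 and 319 against 266, 222 and 189 (log2 difference 0.62, SE 0.15, limma adjusted p = 0.0482). Fibroblast markers gave no call among 17, with a median of 0.22, and 3 higher without Macrophage-depleted 1.

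The called oxygen-linked genes were all lower in Macrophage-depleted. Apln, the vascular peptide apelin, had 137, 127 and 87.8 against 264, 256 and 271, with 255, 281 and 287 in WT (log2 difference -1.19, SE 0.15, limma adjusted p = 0.00185). Egln3, the oxygen-sensing prolyl hydroxylase PHD3, had 525, 591 and 604 against 1116, 1236 and 1084, with 919.8, 765 and 933 in WT (log2 difference -1.0, SE 0.10, limma adjusted p = 0.000277). Both were called lower against WT too, with differences of -1.24 (adjusted p = 0.00839) and -0.60 (adjusted p = 0.0305), while LXR-DKO minus WT was -0.05 (adjusted p = 0.923) and 0.40 (adjusted p = 0.17). With Higd1a, a mitochondrial hypoxia protein (978, 848 and 974 against 1259.7, 1422 and 1148, log2 difference -0.45, SE 0.11, limma adjusted p = 0.0491), they made 3 called lower and none higher of 15 oxygen-sensing and apelin genes, whose median was -0.01. The share called in that list was 20%, against 3.24% of all genes. Of 20 endothelial genes 1 was called, the tight junction gene Cldn5, with 106, 192 and 113 against 425, 309 and 229 (log2 difference -1.23, SE 0.28, limma adjusted p = 0.0371), a share of 5% against 3.24% of all genes. Of the 20, 17 had a negative difference (median -0.19), and the groups did not overlap in 5 lower and 1 higher. Over all genes tested, 14.6% were so separated downward and 13.7% upward, 28.3% in either direction. Of 15 pericyte and smooth muscle genes, Acta2, smooth muscle actin, was called lower, with 1211, 898 and 1672 against 2385, 2339 and 2668, with 1559.8, 1188 and 887 in WT (log2 difference -1.01, SE 0.23, limma adjusted p = 0.0394), and Notch3 was called higher, with 915, 868 and 844 against 675, 658 and 623 (log2 difference 0.43, SE 0.10, limma adjusted p = 0.0395). Of the pericyte and smooth muscle genes 13.3% were called, against 3.24% of all genes. Calls of Apln, Egln3, Eln, Col4a1, Col4a2 and Timp3 held without each library. Those of Higd1a, Cldn5, Acta2, Notch3 and Col8a1 were each lost without several libraries, LXR-DKO 1 and LXR-DKO 2 in each case (adjusted p up to 0.203, 0.143, 0.140, 0.126 and 0.168).

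Calls among cardiomyocyte genes went in both directions. Myh7, the slow myosin heavy chain of the fetal gene program, had 8978, 14558 and 9196 in the Macrophage-depleted libraries, 3901, 4176 and 4446 in LXR-DKO and 3453, 4116 and 3192 in WT. Each Macrophage-depleted value was above every LXR-DKO and WT value (log2 difference 1.35, SE 0.19, limma adjusted p = 0.0034), and Macrophage-depleted minus WT was 1.58 (adjusted p = 0.00839). In the TPM table the Myh7 difference was 0.44 (adjusted p = 0.156), so that call was made in the first table only. Of 18 fetal and hypertrophy genes (22.2% called, against 3.24% of all genes) 2 were called higher (Myh7 and the transcription factor gene Mef2c) and 2 lower (Acta2 and Tnnt1), and Nppa (-0.48) and Nppb (0.17) were not called. None of the 18 was called in the TPM table, and 1 was called, higher, with the trend on transcript length and GC content removed. The median of the 18 was 0.22, and their summed normalised counts were 59459 to 72407 in Macrophage-depleted, 46458 to 55322 in LXR-DKO and 46463 to 69456 in WT. Hcn2, a pacemaker channel gene, was lower in Macrophage-depleted, with 166, 144 and 128 against 328, 292 and 377, with 298, 272 and 316 in WT (log2 difference -1.18, SE 0.15, limma adjusted p = 0.0014). Kcnj11, the pore of the ATP-sensitive potassium channel, was higher, with 914, 704 and 770.0 against 499.5, 421 and 525, with 838, 734 and 799 in WT (log2 difference 0.72, SE 0.16, limma adjusted p = 0.032). For Hcn2, Macrophage-depleted minus WT was -1.02 (adjusted p = 0.0171), and for Kcnj11, LXR-DKO minus WT was -0.72 (adjusted p = 0.103). Kcnj11 lies 1.54 Mb from Nr1h2, among the called genes within 5 Mb of it counted above. Kcnd2 was called higher and Kcnk3 lower, which made 2 and 2 of 24 ion channel genes (0 and 1 without Macrophage-depleted 1). That was 16.7% called, against 3.24% of all genes.

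Sarcomere genes gave 1 call higher and 3 lower of 20 (20% called, against 3.24% of all genes), with a median of -0.13 and 14 of 20 below 0. The TPM table gave 1 higher and 1 lower of the 20, as did removal of the trend on transcript length and GC content. Summed normalised counts of the sarcomere genes did not overlap between the groups, at 983152 to 1189470 in Macrophage-depleted and 1198800 to 1226650 in LXR-DKO. Myoz2, a Z-disc protein that binds calcineurin, had 8835, 6431 and 7929 against 13736, 13114 and 12114, with 9936, 9653 and 10128 in WT (log2 difference -0.76, SE 0.10, limma adjusted p = 0.00239). Mylk3, the cardiac myosin light chain kinase, had 10177, 8565 and 9484 against 6867, 6946 and 7546 (log2 difference 0.40, SE 0.08, limma adjusted p = 0.0179). Myl3 and Csrp3 were called lower by small margins, with differences of -0.38 and -0.39, and Myh6, the main myosin of the mouse ventricle, overlapped (-0.10). Csrp3 lies 4.28 Mb from Nr1h2 on chromosome 7. Markers of atrial tissue ranged from 10740.1 to 29689 in sum among the LXR-DKO libraries and 14012 to 19530.0 in Macrophage-depleted, with none of 11 called. Calls of Myh7, Hcn2 and Myoz2 held without each library, and those of Mef2c, Tnnt1, Kcnj11, Kcnd2, Kcnk3, Mylk3, Myl3 and Csrp3 were each lost without several libraries, LXR-DKO 1 and 2 among them.

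Nuclear genes of the respiratory chain had small, mostly negative differences between the hearts. Of 73 tested, 8 were called lower and none higher (11%, against 1.89% of all genes called lower), 69 had a negative difference, and the median was -0.27. Ndufv3, of complex I, had 2289, 1903 and 2195 against 2902, 3284 and 2634 (log2 difference -0.46, SE 0.10, limma adjusted p = 0.0246), Uqcr11, of complex III, 3473, 2636 and 3026 against 4382, 4978 and 3849 (log2 difference -0.53, SE 0.12, limma adjusted p = 0.0329), and Cox8b, of complex IV, 4513, 3340.1 and 3506 against 5739, 6192 and 4865 (log2 difference -0.57, SE 0.13, limma adjusted p = 0.0345). The groups did not overlap in 46 of the 73, a separation seen downward in 14.6% of all genes. These transcripts are short, with a median length of 1141 bases, and short transcripts were lower in the Macrophage-depleted libraries as given above. With the trend on transcript length and GC content removed, 1 of the 73 was called and the median was -0.15, and the TPM table gave 1 call and a median of -0.23. Without Macrophage-depleted 1, 12 were called, and each of the 3 genes named lost its call without Macrophage-depleted 2 or 3 or LXR-DKO 1 or 2. Median differences from WT were -0.06 in Macrophage-depleted and 0.21 in LXR-DKO. No call was made among 13 genes of the mitochondrial genome (median -0.13). Of 23 genes of mitochondrial biogenesis and turnover, the nuclear receptor gene Esrra was called lower (log2 difference -0.34, SE 0.08, limma adjusted p = 0.0437). That was 4.35% called, against 3.24% of all genes.

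Fuel and stress genes gave calls in both directions. The share called was 12% of 25 glycolysis genes and 14.3% of 21 unfolded protein response genes. It was 8.7% of 23 antioxidant genes and 4.17% of 24 immediate early genes, against 3.24% of all genes. Glycolysis had 1 called higher and 2 lower of 25: Pfkfb3, which makes the allosteric activator of phosphofructokinase, had 209.6, 270.2 and 300 against 118, 134 and 129.9 (log2 difference 1.01, SE 0.20, limma adjusted p = 0.0193), the platelet-type phosphofructokinase Pfkp had 673, 639 and 657 against 877, 965 and 846 (log2 difference -0.45, SE 0.07, limma adjusted p = 0.00808), and the muscle enolase Eno3 had 13524, 11312 and 12066 against 16404, 17277 and 15166 (log2 difference -0.41, SE 0.08, limma adjusted p = 0.0229). Of 32 fatty acid uptake and oxidation genes none was called. In the unfolded protein response, Herpud1 was called higher, with 2831, 2294 and 2826 against 1653, 1668 and 1612 (log2 difference 0.68, SE 0.11, limma adjusted p = 0.00724), and the endoplasmic reticulum proteins Manf and Calr lower, Manf with 255, 355 and 247 against 631, 573 and 480.1 (log2 difference -0.98, SE 0.20, limma adjusted p = 0.0235). Hmox1, the haem oxygenase, was higher, with 115, 145 and 112 against 57.4, 83.3 and 74.2 (log2 difference 0.79, SE 0.19, limma adjusted p = 0.0472), and the peroxiredoxin gene Prdx5 lower (log2 difference -0.38, SE 0.09, limma adjusted p = 0.0354). Ier3, an early response gene, was the 1 called of 24, with 389, 366 and 439 against 218, 245 and 234 (log2 difference 0.77, SE 0.13, limma adjusted p = 0.00855). Calls of Herpud1, Ier3 and Pfkp held without each library, and Hmox1 lost its call without any one of 7 libraries, Manf without Macrophage-depleted 1 or 3 or LXR-DKO 1 or 2, and Pfkfb3 and Eno3 without Macrophage-depleted 2 or 3 or LXR-DKO 1 or 2.

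Over all 43 lists, 72 of 760 distinct genes tested were called, where 3.24% of all genes were, and 25 lists held at least 1 call. The 18 lists with none included calcium handling, lysosomal, cytosolic heat shock, glucocorticoid-responsive and cell cycle genes, whose medians ranged from -0.03 to 0.27.

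**Figure D5:**
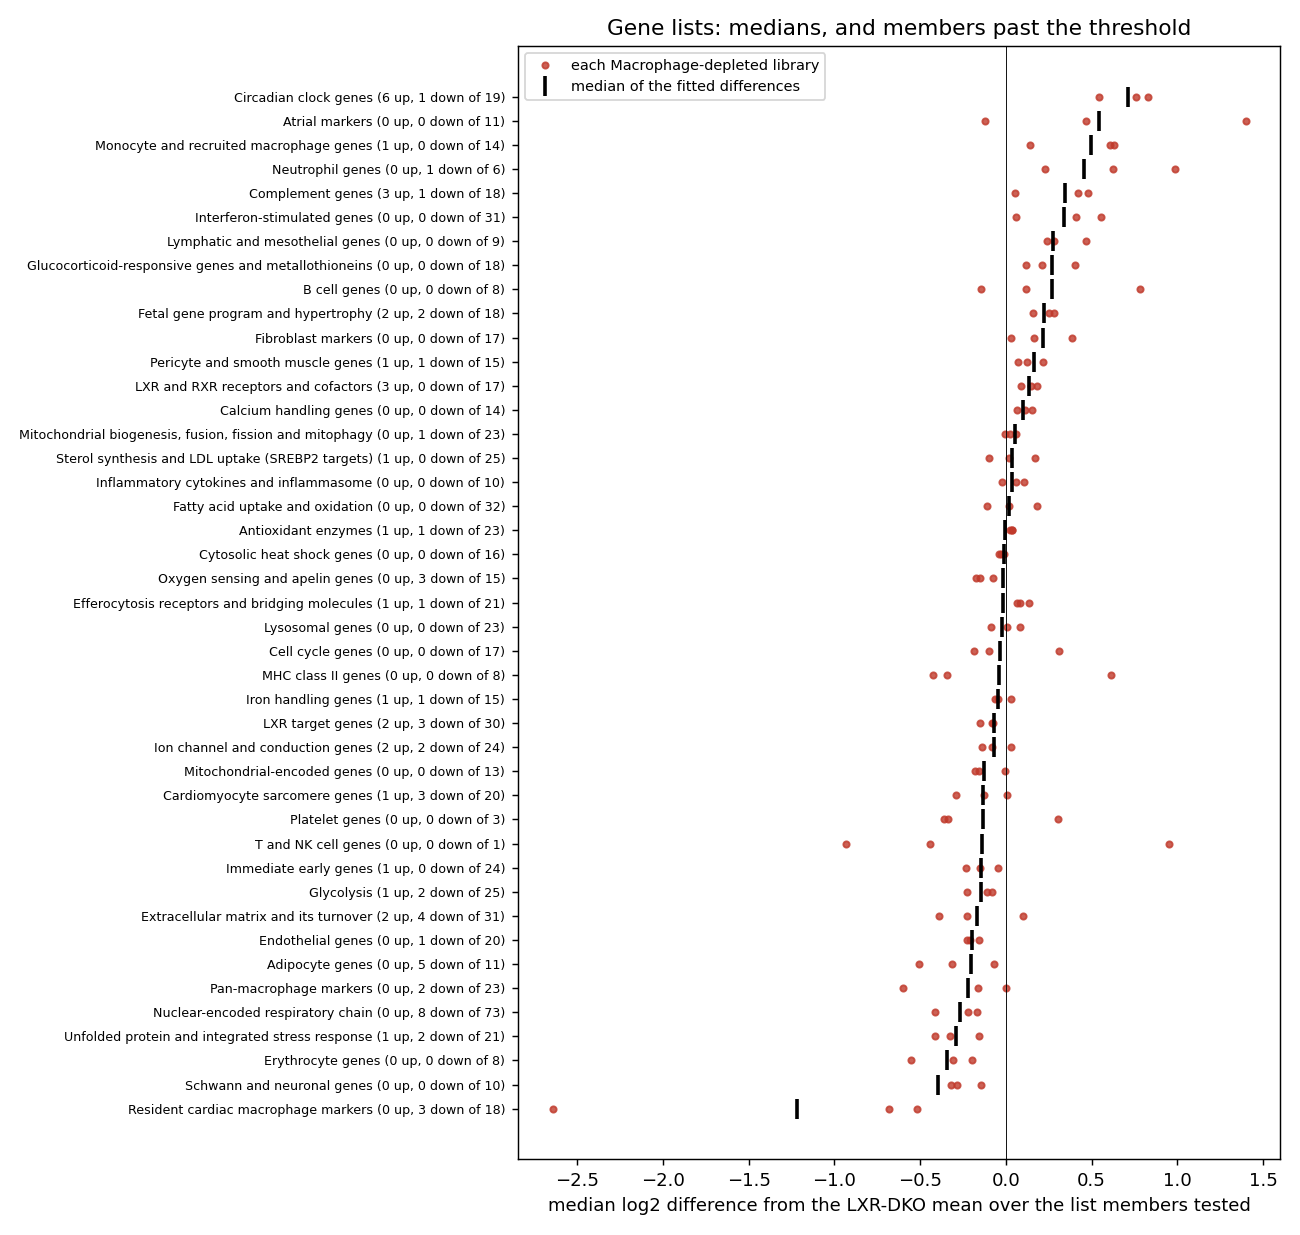
Median log2 difference of each gene list from the LXR-DKO mean (x axis), as the median of the fitted differences (black bar) and in each of the 3 Macrophage-depleted libraries (red points), with counts of called members beside each name. Resident macrophage markers lie lowest (-1.22) and circadian clock genes highest (0.71), and the 3 red points of the resident markers are spread from -0.52 to -2.64.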

How the data were processed

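Poly(A) RNA of whole hearts was extracted with Trizol, amplified with the NuGen Ovation Single Cell kit and sequenced on TruSeq libraries, per the labels' protocols. Software named by the submitters' processing notes was RSEM 1.2.20, kallisto 0.43.1, cutadapt and CASAVA 1.8.2, with the GRCm38 build. For the role of each, the strand setting and the scaling, nothing was given in the sources used here. Deposited by the authors were 2 tables of normalised signal, 1 of normalised counts (35584 genes) and 1 of normalised TPM (33318 genes, 22331 shared). In the first, each value was found to equal estimated reads plus 0.5 over an effective library size. Reads were recovered from it and rescaled to the mean effective size; 57.2% to 61.5% of low values (below 50 reads) were whole within 0.01 read, so no count test was the main result.

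Genes whose normalised counts averaged 10 or more across all 11 libraries entered the test, on log2(normalised count + 1) with limma 3.58.1 (R 4.3.3) in 1 model of the 4 groups with 7 residual degrees of freedom, two-sided, with Benjamini-Hochberg adjustment and a threshold of 0.05. A gene is called when it passes that threshold. Fold changes on this scale understate changes of low genes. Alternatives included scaling by a trimmed mean of M values, written out in code here, and limma's voom on the recovered reads. Symbols and coordinates came from GENCODE M21, matched for 35469 of 35584 identifiers, and upstream sequences from RefSeq (GRCm38.p6). Counting intervals (95%, exact) and the floor of 3 reads cover counting error only.

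Named were the targeted genes, the 14 higher and 14 lower called genes with the greatest difference and no overlap of libraries (predicted models left out), up to 5 called genes of each list with the smallest p (or up to 3 where none was called) and the 3 called genes nearest to each targeted gene. Of these, not every one is printed, and some genes are not reported here. The groups compared, the gene lists and the rules were chosen with earlier results of these data known, so list counts are descriptions without a test.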

Additional observations from a re-analysis of the deposited data

How the results depend on the processing

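With 450 genes called (187 higher, 263 lower), the TPM table gave 218 (100 higher, 118 lower), and all 407 called genes tested there kept their sign. Weights per library gave 2043 (911 higher, 1132 lower), and the 6 libraries fitted alone gave 283 higher and 268 lower. The other scalings, pseudocounts and filters gave 336 to 472 calls, and voom on recovered reads 560. Leaving out 1 library gave 135 to 1229 calls, 59 to 628 higher and 76 to 602 lower, with the lowest without LXR-DKO 2 and the highest without either Mertk-KO library, after which the group of Mertk-KO has 1 library and adds nothing to the spread. Without LXR-DKO 1 there were 154 calls, without LXR-DKO 3 668, without Macrophage-depleted 2 or 3 194 and 188, and without WT 1, 2 or 3 294, 280 and 270. With the replicate number as a block, 313 genes were called, 143 higher and 170 lower, and 422 when only the 6 libraries were fitted with it, an alternative added after seeing the data. No label ties the replicate numbers to a shared animal, litter or day. Deviations of same-numbered libraries correlated at -0.064, -0.062 and -0.063, and no library correlated best with its own number. Taken over all genes, these correlations cannot exclude a factor that same-numbered libraries share and that affects few genes. Removing the trend on transcript length and GC content gave 385. Over 146 named genes and 26 alternatives, 3157 values stayed on the same side of the threshold, 471 lost a call, 108 gained one and none reversed a called direction. Differences that were not called could change sign, as that of Mertk did without Macrophage-depleted 3. Depth limits genes near the floor of 3 reads, which is 2.12 to 4.22 normalised counts in a library.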
